A study of Mus musculus with 6 samples.

Results

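The KEAP1-NRF2 regulators and their feedback targets were followed through hydrogen peroxide (H2O2) exposure of mouse immature dendritic cells. The group holds 10 genes, taken by symbol through the NCBI Gene numbers of the deposited rows: Nfe2l2, Keap1, Nfe2l1, Mafg, Mafk, Bach1, Nqo1, Osgin1, Cbr3 and Sqstm1. All 10 were found among the 17567 rows of each count file, and all 10 passed the filter on low counts, which left 12209 genes. The H2O2 cells received 100 µM for 24 h and the control cells carry no agent in the labels, with 3 samples labelled in each group. In both groups the cells were grown from marrow of 6-week-old male C57BL/6 mice for 6 days with 10% serum, GM-CSF (20 ng/mL) and interleukin-4 (10 ng/mL), and were then selected on beads for the integrin CD11c. No allele or transgene is named. Nothing in the labels says whether samples of a group were separate mice or cultures, so p-values measure sample-to-sample spread that may be purely technical.

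NRF2, the product of Nfe2l2, is a transcription factor that KEAP1 holds in the cytoplasm and passes to a ubiquitin ligase for destruction. Oxidants and electrophiles modify cysteines of KEAP1, NRF2 then escapes, pairs with a small MAF protein such as MAFG or MAFK and binds antioxidant response elements (AREs), while BACH1 occupies the same elements as a repressor. In dendritic cells and macrophages the pathway is known for its antioxidant and haem-handling genes and for its restraint of inflammatory gene expression. Control of NRF2 by KEAP1 acts on the protein, which RNA counts do not measure.

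The promoter windows of 5 of the genes are printed because 3 carry the core of an ARE, Osgin1 carries part of a MAF recognition element, and Nqo1, the gene with the largest change in the group, carries neither. Each runs 5′ to 3′ on the gene's strand and comes from RefSeq on build GRCm38.p6. A window reaches from 250 bases before a transcript start to 50 bases after it, and positions are counted from that start. The starts used for Mafg and Osgin1 lie inside the spans given below for these genes, not at their 5′ ends. Capitals mark the match, either the ARE core TGACNNNGC or part of a MAF recognition element, TGCTGA followed by any base and TCA, each searched on both strands. The 2 patterns can overlap one another where TGAC is shared.
Nfe2l2, chr2:75704614-75704913, minus strand: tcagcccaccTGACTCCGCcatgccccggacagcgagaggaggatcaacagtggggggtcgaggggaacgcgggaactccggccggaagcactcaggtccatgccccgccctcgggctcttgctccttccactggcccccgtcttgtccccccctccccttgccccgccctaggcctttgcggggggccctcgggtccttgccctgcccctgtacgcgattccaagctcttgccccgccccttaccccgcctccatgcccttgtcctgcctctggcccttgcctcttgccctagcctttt
Mafg, chr11:120633498-120633797, minus strand: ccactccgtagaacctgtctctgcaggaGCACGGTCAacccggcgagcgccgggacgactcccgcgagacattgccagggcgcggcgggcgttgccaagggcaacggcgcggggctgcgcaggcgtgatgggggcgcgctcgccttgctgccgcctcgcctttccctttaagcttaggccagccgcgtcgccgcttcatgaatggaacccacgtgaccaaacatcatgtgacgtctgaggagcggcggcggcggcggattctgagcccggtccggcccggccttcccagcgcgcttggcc
Mafk, chr5:139791286-139791585, plus strand: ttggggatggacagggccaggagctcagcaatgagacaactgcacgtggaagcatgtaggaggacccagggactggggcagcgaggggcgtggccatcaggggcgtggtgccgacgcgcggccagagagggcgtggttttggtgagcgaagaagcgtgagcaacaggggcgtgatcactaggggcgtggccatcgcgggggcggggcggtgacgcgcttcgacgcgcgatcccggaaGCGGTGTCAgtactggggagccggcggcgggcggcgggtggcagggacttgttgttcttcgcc
Osgin1, chr8:119436897-119437196, plus strand: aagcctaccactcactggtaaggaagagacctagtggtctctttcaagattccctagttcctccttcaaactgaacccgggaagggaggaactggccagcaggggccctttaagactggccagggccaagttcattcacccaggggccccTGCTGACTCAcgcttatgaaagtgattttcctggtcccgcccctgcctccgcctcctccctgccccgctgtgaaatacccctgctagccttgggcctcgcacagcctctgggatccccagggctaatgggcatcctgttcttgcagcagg
Nqo1, chr8:107403156-107403455, minus strand: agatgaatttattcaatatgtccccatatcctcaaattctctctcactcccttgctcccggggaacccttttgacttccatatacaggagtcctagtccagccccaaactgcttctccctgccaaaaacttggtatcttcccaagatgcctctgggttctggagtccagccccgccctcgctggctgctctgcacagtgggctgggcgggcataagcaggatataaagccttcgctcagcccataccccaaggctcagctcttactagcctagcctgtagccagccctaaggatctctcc
The core stood at −240 from the start used for Nfe2l2, as TGACTCCGC. It stood at −222 from that used for Mafg, in reverse (GCACGGTCA), and at −13 from that used for Mafk, in reverse (GCGGTGTCA). It was present in windows of 3 of the 10 genes, against 14.0% of all 27025 genes with a window and 12.4% of all 32851 windows. The MAF pattern, TGCTGACTCA at −100, was found in Osgin1 and in 0.492% of all genes. The windows of Nqo1, Keap1, Sqstm1, Nfe2l1, Bach1 and Cbr3 held neither pattern, which says only that these letters were not in these short windows. A match is a description of letters and was not tested for binding.

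Library totals were between 16232604 and 16672491 estimated counts. The third H2O2 file copied the first in every value, so the pair was counted as 1 library and 5 distinct libraries remained, 2 H2O2 and 3 control. Y-linked transcripts reached 96.4 CPM (counts scaled to a common library size) in H2O2 replicate 1 and 106 CPM in control replicate 1, against at most 0.427 CPM in the other 3 libraries, although all mice are labelled male. The libraries with these transcripts are called set A below (H2O2 1 and control 1) and the others set B (H2O2 2, controls 2 and 3). Set and treatment were fitted together with edgeR, and a gene was called when its p, adjusted by the method of Benjamini and Hochberg, did not exceed 0.05. CD11c RNA (Itgax) was abundant, at 1836.5 ± 481 CPM in H2O2 libraries (SD, n = 2) and 1855.7 ± 348 CPM in control libraries (n = 3). T, NK and B cell markers summed to 0.769 and 1.62 CPM in H2O2 libraries and at most 3.32 CPM in control libraries, and erythroid markers to 0.177 and 0.259 CPM in H2O2 libraries and at most 0.915 CPM in control libraries.

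After H2O2, 4 of the 10 genes were higher than in control cells, namely the small MAF gene Mafk and the targets Nqo1, Cbr3 and Sqstm1. None was called lower by edgeR, DESeq2 or limma-voom, and 1 (Nfe2l1) was lower at an unadjusted p under 0.05. Nqo1 had the largest change of the group, 2.33-fold, and the others called were between 1.31-fold and 1.53-fold higher. Among all genes tested 3.93% were called higher and 4.61% lower, 8.54% together. Of the 10 genes 1, Nqo1, was higher by at least 1 on the log2 scale, against 0.573% of all genes. The median log2 change was 0.33 over the 10 genes and 0.0089 over all genes, and 9 of the 10 log2 values were above 0. Every H2O2 library lay above every control library for 4 of the 10 genes (Nfe2l2, Mafg, Mafk and Nqo1), against 13% of all genes tested, and below every control for 1 (Nfe2l1), against 10.7%. In 7 of the 10 genes the H2O2 library exceeded the controls of its own set in both sets, against 28.5% of all genes, and in 1, Nfe2l1, it lay below them in both, against 28%. In bulk samples, fewer cells of a type and less RNA per cell cannot be told apart.

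**Figure D1:**
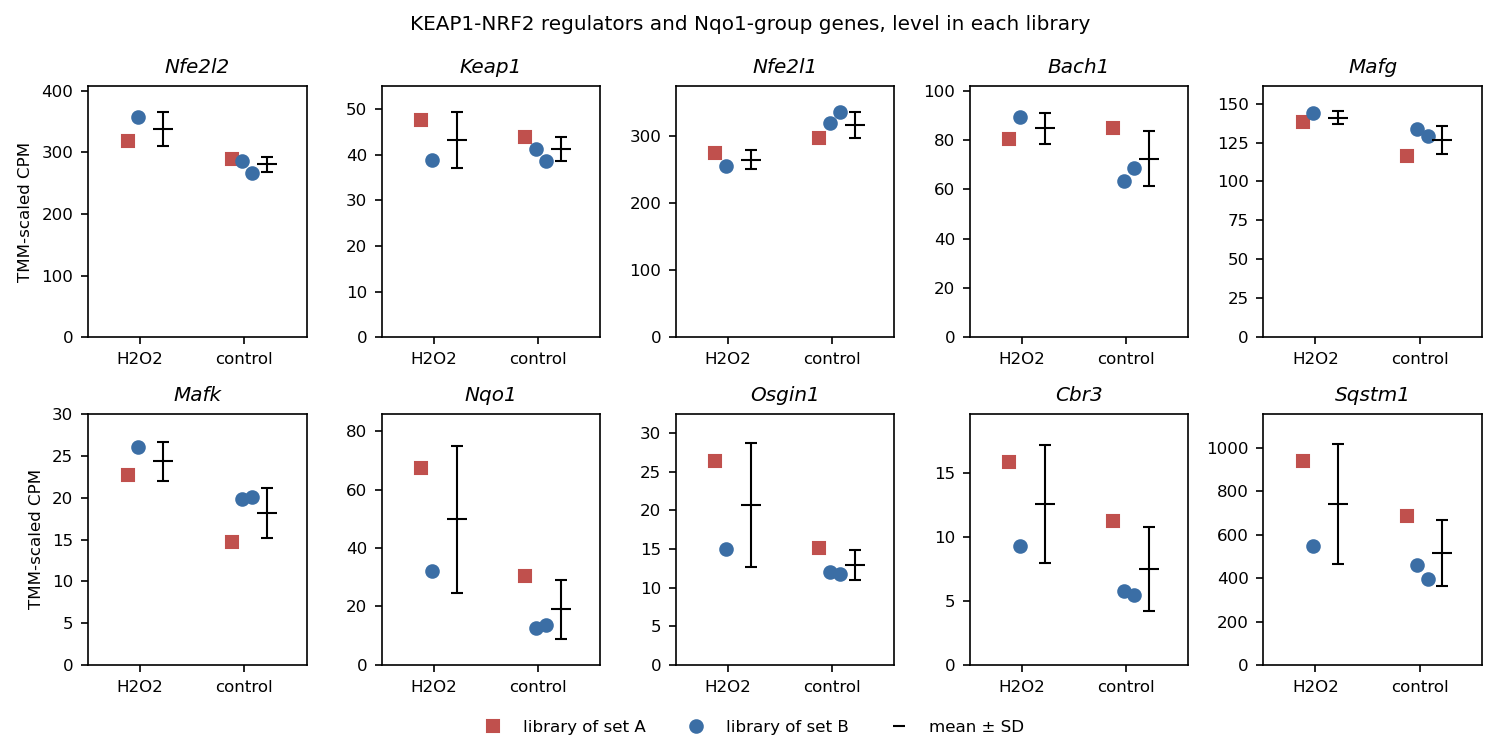
TMM-scaled CPM (y axis, from 0) of each of the 10 genes in every distinct library, H2O2 libraries left of control libraries, squares for set A, circles for set B and bars for the mean ± SD of each group. In Nqo1, Cbr3 and Sqstm1 the set A library lies above the set B libraries of the same group, and each H2O2 library lies above the controls of its own set.

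Among the regulators, Nfe2l2 (NCBI Gene 18024; chromosome 2, 75675513 to 75704663 on GRCm38.p6) had 318 and 357 CPM in H2O2 libraries 1 and 2, against 288, 286 and 266 CPM in control libraries 1 to 3. Both H2O2 libraries lay above every control. The fitted change was 1.21-fold (log2 0.28 ± 0.080, SE), which did not pass the test (edgeR adjusted p = 0.0805). Its window, printed above, holds an ARE core, a match found in 14.0% of all genes with a window. NRF2 acting on its own gene is known as a positive feedback, and whether it took part here was not tested.

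Keap1 (NCBI Gene 50868; chromosome 9, 21229730 to 21239332), the cysteine-rich adaptor that holds NRF2, had 47.6 and 38.9 CPM in H2O2 libraries, against 43.9, 41.2 and 38.7 CPM in control libraries. The groups overlapped, and the log2 change of 0.03 ± 0.082 was not called (edgeR adjusted p = 0.848). Its sign differed between sets, at 0.12 in set A but −0.04 in set B. Counting intervals of the fold spanned 1 in both, from 0.981 to 1.20 in set A and from 0.882 to 1.07 in set B (95%, exact, counting error only).

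Bach1 (NCBI Gene 12013; chromosome 16, 87698954 to 87733346), the haem-sensing repressor of ARE genes, had 80.4 and 89.3 CPM in H2O2 libraries, against 85.0, 63.6 and 68.8 CPM in control libraries. In set B the H2O2 library lay above both controls, with a log2 difference of 0.43, while in set A it lay slightly below its control, with −0.08. The change fitted over both sets was 0.21 ± 0.119 on the log2 scale and was not called (edgeR adjusted p = 0.293). The difference between the sets was −0.51 ± 0.12 (log2, SE) and did not pass the threshold either (edgeR adjusted p = 0.136).

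The small MAF genes encode short DNA-binding partners of NRF2, which have no activation domain of their own. Mafk (NCBI Gene 17135; chromosome 5, 139791536 to 139802653) had 22.7 and 26.0 CPM in H2O2 libraries, against 14.8, 19.8 and 20.1 CPM in control libraries, with no overlap. It was 1.40-fold higher (log2 0.48 ± 0.106, edgeR adjusted p = 0.0406). The counting interval of the fold lay above 1 for set A (1.31 to 1.81) as it did for set B (1.15 to 1.48). Such intervals leave out spread between libraries. For control 2 over control 3, both of set B, they also excluded 1 in Nfe2l2 (1.03 to 1.12), Nfe2l1 (0.916 to 0.988) and Sqstm1. In the other genes they spanned 1, with 0.845 to 1.15 for Mafk. Mafg (NCBI Gene 17134; chromosome 11, 120625117 to 120634955) had 138 and 144 CPM in H2O2 libraries, against 116, 134 and 129 CPM in control libraries. It too did not overlap, but at 1.13-fold (log2 0.18 ± 0.070) it was not called (edgeR adjusted p = 0.149). The ratio of Mafg to Mafk per exonic length was 4.08 and 3.71 in H2O2 libraries, against 5.28, 4.52 and 4.33 in control libraries.

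Nfe2l1 (NCBI Gene 18023; chromosome 11, 96817414 to 96829968) encodes NRF1, a relative of NRF2 anchored in the endoplasmic reticulum and known to drive proteasome genes. It had 276 and 255 CPM in H2O2 libraries, against 297, 319 and 336 CPM in control libraries, and was the 1 gene of the 10 with a negative log2 change. Both H2O2 libraries lay below every control. The difference was −0.25 ± 0.083 on the log2 scale, which is 1.19-fold lower, and it was not called (edgeR adjusted p = 0.108). Per exonic length, Nfe2l2 stood at 2.27 and 2.75 times Nfe2l1 in H2O2 libraries, against 1.91, 1.76 and 1.56 times in control libraries.

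**Figure D2:**
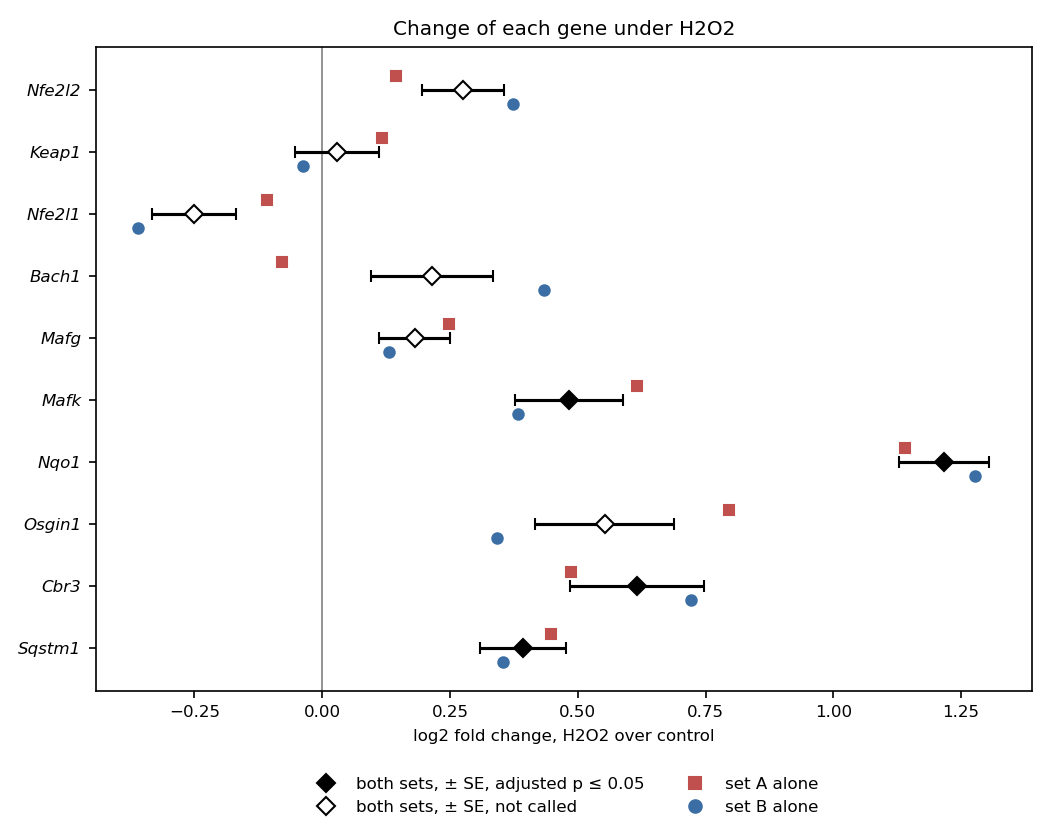
Log2 fold change of each gene, H2O2 over control (x axis), from the fit over both sets with its standard error (diamonds, filled where the adjusted p was at most 0.05) and within set A or set B alone (squares and circles). Nqo1 lies at 1.22, set A 1.14 and set B 1.28, and Keap1 and Bach1 have values on both sides of 0.

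Nqo1 (NCBI Gene 18104; chromosome 8, 107388225 to 107403205) encodes the quinone reductase that is the usual marker of NRF2 activity. It had 67.5 and 32.1 CPM in H2O2 libraries, against 30.6, 12.7 and 13.7 CPM in control libraries. All H2O2 values were above all control values, though the lower H2O2 library stood barely above the highest control, which belongs to the other set. The change was 2.33-fold (log2 1.22 ± 0.088, edgeR adjusted p = 0.0044), and 0.475% of tested genes rose more on the log2 scale. Within sets it was 2.21-fold in set A (95% counting interval 1.99 to 2.45) and 2.43-fold in set B (2.14 to 2.78).

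Cbr3 (NCBI Gene 109857; chromosome 16, 93683219 to 93690991), a carbonyl reductase, had 15.8 and 9.33 CPM in H2O2 libraries, against 11.3, 5.74 and 5.49 CPM in control libraries. The groups overlapped across sets, because control 1 lay above H2O2 library 2, and did not overlap within either set. It was 1.53-fold higher (log2 0.62 ± 0.131, edgeR adjusted p = 0.0379), with 1.41-fold in set A (1.16 to 1.70) and 1.66-fold in set B (1.33 to 2.08).

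Sqstm1 (NCBI Gene 18412; chromosome 11, 50200152 to 50210820) encodes p62, an autophagy receptor that binds KEAP1 and takes it to degradation. It had 939 and 547 CPM in H2O2 libraries, against 688, 460.3 and 398 CPM in control libraries. Here too control 1 exceeded H2O2 library 2, and each H2O2 library exceeded the controls of its set. It was 1.31-fold higher (log2 0.39 ± 0.084, edgeR adjusted p = 0.0383), while control 2 over control 3 of the same set was 1.16-fold (1.12 to 1.19, counting interval). Of the 50-base stretches of its transcripts, 15.5% are shared with transcripts of Mrnip, which had at most 4.01 CPM in any library.

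Osgin1 (NCBI Gene 71839; chromosome 8, 119425882 to 119446257), a growth inhibitor induced by oxidative stress, had 26.3 and 15.03 CPM in H2O2 libraries, against 15.1, 11.96 and 11.7 CPM in control libraries. The lower H2O2 library and the highest control were almost equal. Its change of 1.47-fold (log2 0.55 ± 0.136) just missed the threshold (edgeR adjusted p = 0.0544). It was 1.74-fold in set A (1.49 to 2.04) and 1.27-fold in set B (1.07 to 1.498), and that difference between the sets was not called (edgeR adjusted p = 0.418).

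The fit without the set term called 0 of the 10 genes, with 1 of them, Nqo1, at an unadjusted p under 0.05, and 0 of all genes, with 853 of all genes at an unadjusted p under 0.05. The calls above therefore rest on the separation into sets. Leaving out H2O2 library 2 left 0 of the 10 genes called, with Nqo1 at an adjusted p of 0.0994, leaving out control 3 left 1, Nqo1, and leaving out control 2 left 2, Nqo1 and Sqstm1.

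All 4 target genes were called between the sets, with set A the higher. Nqo1 was 2.22-fold higher at equal treatment (edgeR adjusted p = 1.96e-04), Cbr3 1.86-fold (0.0026), Sqstm1 1.65-fold (9.84e-04) and Osgin1 1.47-fold (0.0196). Among all genes 19.1% were called higher in set A and 16.9% lower, 36% together. None of the 6 regulators was called between the sets, with Mafk nearest, at −0.33 on the log2 scale (edgeR adjusted p = 0.0524). Of the 10 genes, 3 (Nqo1, Cbr3 and Sqstm1) were called higher both in H2O2 cells and in set A, against 1.05% of all genes. A difference between the sets in the effect of H2O2 was called for 0 of the 10 genes by edgeR or by DESeq2, against 0.0164% of all genes tested called by edgeR. At an unadjusted p under 0.05 in edgeR it was 1 of the 10 (Bach1), against 13.7% of all genes, which is near the background. That fit had 1 residual degree of freedom.

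**Figure D3:**
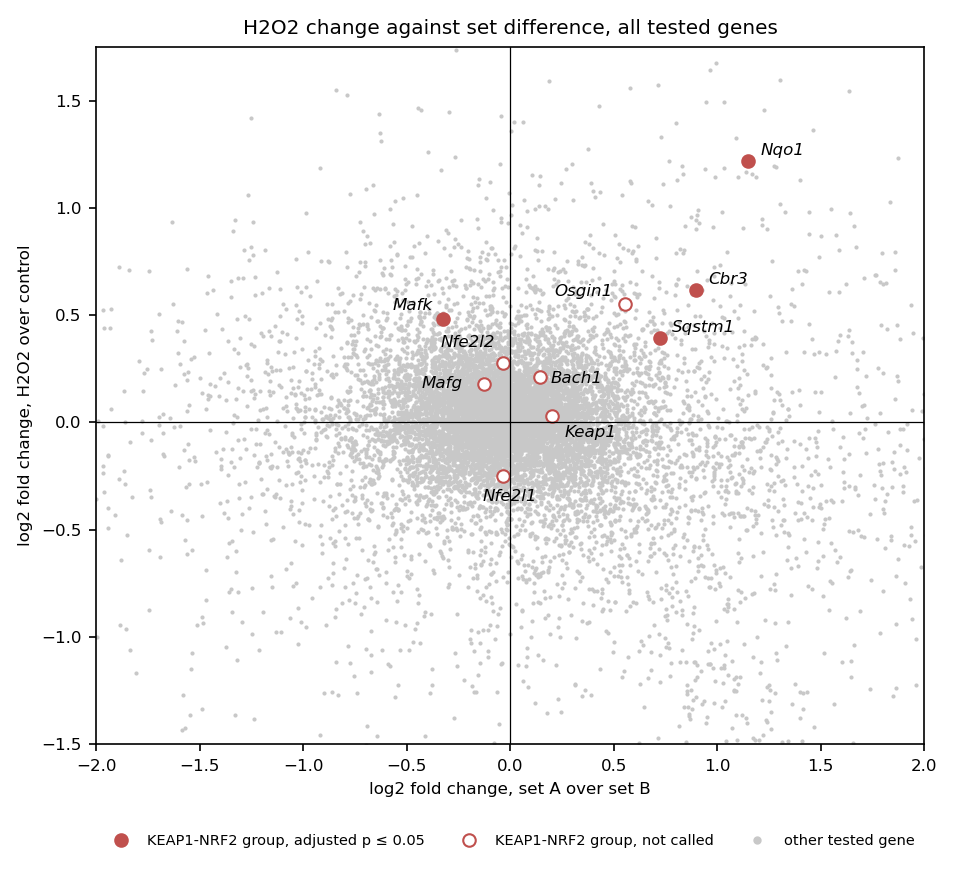
Log2 fold change of H2O2 over control (y axis) against log2 fold change of set A over set B (x axis) for all 12209 tested genes (grey), with the 10 genes marked (filled where called under H2O2). Nqo1, Cbr3, Osgin1 and Sqstm1 sit in the upper right quadrant, and 412 genes lie outside the axes and are not drawn.

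Compared per exonic length, so that genes of different size can be set side by side, Sqstm1 was the most abundant of the 10, at 263 RPKM (CPM divided by exonic length in kilobases) in H2O2 libraries (mean, n = 2) and 183 ± 54.1 RPKM in control libraries (SD, n = 3). Nfe2l2 followed at 137 RPKM in H2O2 libraries and 113 ± 4.83 RPKM in control libraries, then Nfe2l1 at 54.5 RPKM in H2O2 libraries and 65.2 ± 4.01 RPKM in control libraries. Mafg stood at 26.1 RPKM in H2O2 libraries and 23.4 ± 1.68 RPKM in control libraries, and Keap1 at 9.61 RPKM in H2O2 libraries and 9.17 ± 0.581 RPKM in control libraries. Mafk had the lowest means, at 6.73 RPKM in H2O2 libraries and 5.03 ± 0.827 RPKM in control libraries, though Cbr3 lay below it in controls 2 and 3. In control cells the mean of Cbr3 (6.41 ± 2.80 RPKM) did not differ beyond its spread from that of Osgin1 (6.45 ± 0.946 RPKM) or Mafk. Osgin1 lay above Mafk in each control, at 7.54, 5.97 and 5.84 RPKM against 4.08, 5.48 and 5.54 RPKM. The means of Nqo1 (12.2 ± 6.48 RPKM) and Bach1 (12.3 ± 1.90 RPKM) did not differ beyond their spread. The Nfe2l2 to Keap1 ratio per length was 12.2 and 16.7 in H2O2 libraries and between 11.9 and 12.6 in control libraries. H2O2 library 1 lay inside the control range and H2O2 library 2 above it.

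The wider pathway was described by lists chosen with earlier results of these data known. Of 42 tested genes outside the group that NRF2 is known to drive, 19 were called higher in H2O2 cells and 0 lower, with a median log2 change of 0.36. Among all genes tested 3.93% were called higher and 4.61% lower, with a median of 0.0089. Between the sets, 17 of the 42 were called higher in set A and 2 lower, against 19.1% and 16.9% of all genes. Prdx1, a peroxidase that consumes H2O2, had 4431 and 4297 CPM in H2O2 libraries, against 2147, 1930 and 1753 CPM in control libraries (log2 1.15 ± 0.080, edgeR adjusted p = 0.0044). Hmox1, the haem-degrading enzyme, had 578 and 393 CPM in H2O2 libraries, against 268, 193 and 163 CPM in control libraries (log2 1.13 ± 0.086, edgeR adjusted p = 0.0050). Fth1, a ferritin subunit, rose 0.56 ± 0.093 on the log2 scale (edgeR adjusted p = 0.0240). Of 10 genes that BACH1 is known to repress, 8 were called higher and 0 lower, with a median log2 change of 0.54. They include Nqo1 and Sqstm1 and share further genes with the NRF2 list, Hmox1 and Fth1 among them, so the 2 lists are not separate evidence.

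**Figure D4:**
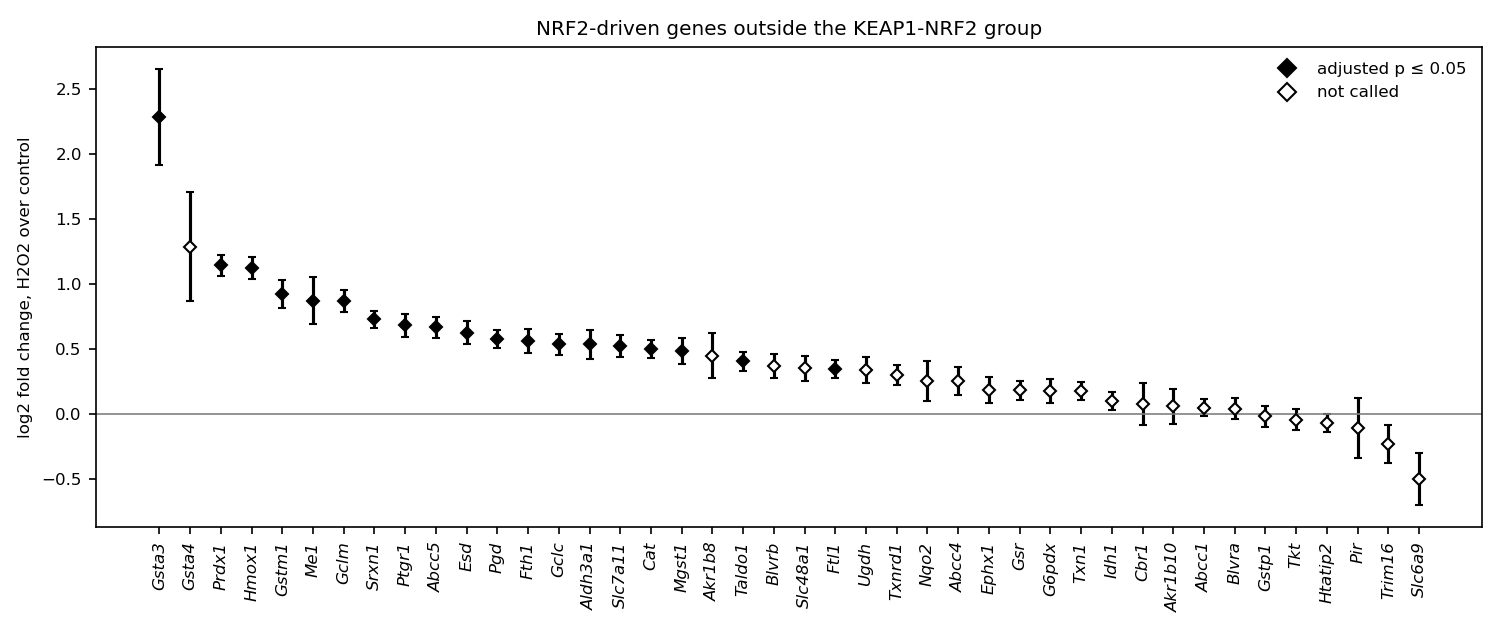
Log2 fold change, H2O2 over control, (y axis, ± SE) of each tested gene outside the KEAP1-NRF2 group that NRF2 is known to drive, in order of the change, filled where the adjusted p was at most 0.05. Of these 42 genes 19 were called higher and none was called lower, against 3.93% and 4.61% of all genes tested.

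In the machinery that handles the NRF2 protein itself, 0 of 16 genes for its turnover (CUL3, the beta-TrCP ligase and kinases) were called by edgeR, DESeq2 or limma-voom, with a median log2 change of 0.10. At an unadjusted p under 0.05 in edgeR, 4 were higher and 1 lower, near the 27.8% of all genes below that p in either direction. The most abundant, Ddb1, had a log2 change of 0.11 ± 0.064. Of 8 KEAP1-binding proteins, 1 was called lower, the replication factor Mcm3 (log2 −0.62 ± 0.137, edgeR adjusted p = 0.0414), and Ikbkb, the most abundant, had −0.07. Among 16 other CNC, BACH and MAF factors and partners, edgeR called 3 higher, against 3.93% of all genes tested. These were Maf (log2 1.14 ± 0.217), Jun (0.49 ± 0.081) and Rxra (0.35 ± 0.070), while the median of the list was 0.0013. Maf was low, at 5.91 and 3.56 CPM in H2O2 libraries, against 3.20, 1.39 and 1.28 CPM in control libraries. DESeq2 called 1 of the 16 higher and limma-voom 3. None of the 16 was called lower by edgeR, where 2 were lower at an unadjusted p under 0.05. These were Atf4, the most abundant (log2 −0.23 ± 0.086), and Nfe2 (log2 −0.66 ± 0.183), which DESeq2 called lower and which is named after its values were seen. Of 33 proteasome subunits, which NFE2L1 is known to drive, edgeR called 1 higher, Psmc5 (0.36 ± 0.077), against 3.93% of all genes tested. DESeq2 called 0 of the 33 and limma-voom 1. The median of the 33 was 0.07, and Psmd2, the most abundant, had 0.18 ± 0.079. None of 9 tested genes for NFE2L1 processing was called by any of the 3 tools, with 1 higher at an unadjusted p under 0.05 in edgeR, a median of 0.09 and Vcp, the most abundant, at 0.16 ± 0.080. Of the 19 autophagy receptors and ATG8 proteins that partner p62, 0 were called by any of the 3 tools. In edgeR 4 had an unadjusted p under 0.05, all of them higher, against 27.8% of all genes in either direction. The share of all genes higher at that p was not computed. All 19 log2 values were above 0, with a median of 0.14 against 0.0089 over all genes, and the share of all genes above 0 was not computed. Gabarap, the most abundant, had 0.10 ± 0.072. Of 12 tested carbonyl and quinone reductase relatives, Nqo1, Cbr3 and Akr1a1 (log2 0.51 ± 0.076) were called higher, while Cbr1, the gene that shares the most transcript stretches with Cbr3 (0.0797%), had 0.08 ± 0.163.

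The pattern of Nqo1 over the 5 libraries was closest to that of Mt1, a metallothionein, with a root mean square difference of 0.032 in centred log2 CPM. Next came Tanc2 (0.12), Gstm1 (0.17), Cyp1b1 (0.19) and Ppbp (0.19), among 8691 genes of at least 10 CPM. Sqstm1 stood at rank 94 (0.497) and Osgin1 at rank 102 (0.504). The regulators were much less alike, with Bach1 at rank 1228 (0.758), Nfe2l2 at 2031 and Keap1 at 2137. Mafk stood at rank 3513, Mafg at 3697 and Nfe2l1 at 6677 (1.00). Cbr3 averaged 9.54 CPM, under the floor of 10 CPM, and was not ranked.

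Markers of cycling cells and of other cell types also differed with H2O2. Among all genes tested 4.61% were called lower and 3.93% higher. All 10 genes of the proliferation list were lower, and their sum was 365 and 177 CPM in H2O2 libraries, against 1139, 326 and 608 CPM in control libraries. Of the dendritic markers, 7 of 12 were lower, with a sum of 7997 and 9011 CPM in H2O2 libraries and 9915 to 10508 CPM in control libraries, and Itgax itself did not pass the test (log2 0.06 ± 0.076). Basophil and mast cell markers summed to 10.1 and 21.2 CPM in H2O2 libraries, against 32.4, 53.5 and 80.7 CPM in control libraries. Macrophage markers summed to 32257 and 39288 CPM in H2O2 libraries and 28582 to 32584 CPM in control libraries. Most of that sum was Chil3, which was not called (edgeR adjusted p = 0.0959), and the other markers of the list summed to 1586 and 1394 CPM in H2O2 libraries, against 1392, 1211 and 1183 CPM in control libraries. Neutrophil markers summed to 964 and 1820 CPM in H2O2 libraries, against 557, 1149 and 1312 CPM in control libraries. Without Mmp8, which was called higher, they summed to 119 and 584 CPM in H2O2 libraries, against 125, 365 and 615 CPM in control libraries, and the list's median log2 change was −0.60. Eosinophil markers summed to 32.3 and 24.7 CPM in H2O2 libraries, against 58.7, 35.3 and 32.5 CPM in control libraries. Most of that sum was Siglecf, which was called lower (edgeR adjusted p = 0.0397). The other eosinophil markers summed to 0.946 and 3.82 CPM in H2O2 libraries, against 1.57, 6.89 and 6.89 CPM in control libraries. Chil3, Mmp8 and Siglecf are named after their values were seen, as the most abundant of their lists. Of the tested genes, 5 of 7 basophil and mast cell, 3 of 4 eosinophil, 3 of 11 neutrophil and 2 of 11 macrophage markers were lower, and 1 in each of the last 3 lists was higher. The lists also differed between the sets, where 19.1% of all genes were called higher in set A and 16.9% lower. All 10 proliferation genes were higher in set A, while 6 of 7 basophil and mast cell and 9 of 11 neutrophil markers were lower. Dendritic markers had 5 higher and 3 lower in set A, macrophage markers 4 and 2, and eosinophil markers 1 and 3. No marker of any list was at 0 in all 5 libraries. The part of these shifts in the changes of the 10 genes was not tested.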

How the data were processed

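Bulk RNA was sequenced on DNA nanoballs in 6 labelled samples, and the deposited values are estimated counts per gene, per the file headers, with no normalization applied. HISAT, Bowtie2 and build GRCm38.p6 are named without roles in the submitters' processing notes, with the counter, annotation and strand setting not given in the sources used here, so overlapping and antisense genes may share reads. Values were rounded, and 17520 of 17567 rows (99.73%) were matched to RefSeq symbols. Genes were kept by filterByExpr (minimum count 10, minimum total 15), scaled with TMM and tested with edgeR 4.0.16 (quasi-likelihood, library set plus treatment, 2 residual degrees of freedom) in R 4.3.3, with Benjamini-Hochberg adjustment over 12209 genes. Set values are differences of log2 CPM with a prior count of 2. RPKM values were computed here from exon lengths of GENCODE M21. Alternatives were DESeq2 1.42.0, limma-voom (3.58.1), RLE scaling, no filter, unrounded counts, no set term, a replicate block and leaving out each library. The steps were tested on simulated data. These were drawn from means fitted with the library sets, so they cannot judge the choice of the set term. The 10 genes, the gene lists and the set term were chosen with earlier results of these data known. All 10 genes are named; of each other list, the text names the 2 called genes of lowest p per direction and the most abundant, all called genes where 5 or fewer were called, and the 5 genes most like Nqo1. H2O2 replicate 3 was counted with replicate 1. Counting intervals hold counting error only and leave out other spread between libraries. Controls 2 and 3, of the same group and set, had a chi-square per degree of freedom of 5.07, more than counting error alone gives. Reads carry no molecular identifiers.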

Additional observations from a re-analysis of the deposited data

Results flagged for a closer look

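For Bach1 the H2O2 library lay below its control in set A and above both controls in set B, but in set A the counting interval of the fold included 1, so a decrease there is not shown. The H2O2 minus control log2 difference was −0.0795 in set A (H2O2 1 against control 1) and 0.43 in set B (H2O2 2 against controls 2 and 3). A test of the difference itself, the set by treatment term of edgeR, gave −0.51 ± 0.12 (log2, SE), with an edgeR adjusted p of 0.136 over all genes tested. The counting interval of the fold ran from 0.878 to 1.02 in set A and from 1.26 to 1.44 in set B. With 1 H2O2 library in each set, library and set cannot be told apart.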

How the results depend on the processing

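The number of the 10 genes called under H2O2, 4 in the fit reported, was 0 without the set term, 1 with the replicate block in place of it, 1 without a filter and 2 with DESeq2, and was between 0 and 6 when 1 library was left out. Over all genes tested the count of 1043 became 0 without the set term, 554 with the replicate block, 102 without a filter, and between 1 and 2064 with 1 library left out, the extremes being H2O2 2 and control 1, with 304 without control 3. Of the NRF2-driven genes outside the group, 19 called became 0 without the set term, 8 without a filter, and between 0 and 20 with 1 library left out, with 0 without H2O2 2 and 11 without control 3. Replicate numbers did not establish pairs, as only 2 numbers are shared. Deviations from group means correlated at 0.81 for number 1 and 0.71 for number 2, but also at 0.66 between H2O2 2 and control 3. The deviations of the 2 H2O2 libraries mirror each other by construction, so these correlations are not separate observations. The set by treatment term called 2 genes with edgeR and 41 with DESeq2. The log2 values of Mafk, Nqo1, Cbr3 and Sqstm1 kept their sign under these alternatives, while those of Keap1 (to −0.0472) and Bach1 (to −0.0819) did not. Nqo1 stayed between 1.14 and 1.39, and its call was lost without the set term and without H2O2 2. Mafk was called in 3 of 12 alternatives, Cbr3 in 5 and Sqstm1 in 6, while Nfe2l2 and Bach1 (higher) and Nfe2l1 (lower) were called when either set A library was left out, which leaves set B alone to inform the fit. Osgin1 was called by limma-voom (adjusted p = 0.0454).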

Other observations

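Among the other CNC, BACH and MAF factors and partners, 8 of 16 genes were called higher in set A and 4 higher in set B, against 19.1% and 16.9% of all genes. Rara, the retinoic acid receptor alpha gene, had 26.4 and 22.8 CPM in the set A libraries (H2O2 1 and control 1), against 84.5, 92.9 and 90.9 CPM in the set B libraries (H2O2 2 and controls 2 and 3). The fitted difference was −1.86 on the log2 scale, set A minus set B (edgeR adjusted p = 6.14e-05). Rara was chosen after its values were seen.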
